A study of Homo sapiens with 2 samples.

Results

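PAN3 and the genes of the main cytoplasmic mRNA deadenylases were followed in RKO cells, an established line from a human colon carcinoma, after knockdown of the splicing factor SRSF2. The members were 10 genes of the 54261 in the count table: PAN2 and PAN3, which form 1 complex, CNOT1, CNOT2, CNOT3, CNOT6, CNOT6L, CNOT7 and CNOT8 of the CCR4-NOT complex, and PARN, which acts on its own. They were chosen by name, with earlier results of these 2 libraries known, so their values are descriptions. An alternative exon of PAN3, which the study assayed by RT-PCR, was described from its position and sequence only. The groups were RKO cells transfected with a non-targeting siRNA (si-NC) and RKO cells transfected with an siRNA against SRSF2 (si-SRSF2), each measured by RNA sequencing in 1 library. No replicate and so no test was available. The 2 libraries also share 1 cell line and 1 siRNA per group, and a difference between them cannot be told apart from the variation between transfections or from effects of an siRNA on other targets.

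Most mRNAs leave the nucleus with a poly(A) tail that protects them and helps translation. Shortening of the tail, called deadenylation, is usually the first step of mRNA decay and is followed by removal of the cap and digestion from either end. PAN2-PAN3 is known to trim long tails that are coated with poly(A)-binding protein, and CCR4-NOT to carry the shortening further. In PAN2-PAN3 the nuclease is PAN2, and PAN3 is the adaptor that binds poly(A)-binding protein, microRNA effector proteins and the RNA. CCR4-NOT holds a pair of nucleases at a time, 1 from CNOT6 or CNOT6L and 1 from CNOT7 or CNOT8, on the scaffold CNOT1. SRSF2 is a serine/arginine-rich protein that binds exons and promotes, or in places reduces, their inclusion in mRNA.

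The PAN3 exon is shown first because splicing is the step on which SRSF2 acts. PAN3 (GRCh38, chr13:28138506-28295335, plus strand) has a canonical transcript, PAN3-201, of 19 exons and 5590 bases in GENCODE release 44. The alternative exon lay at chr13:28239579-28239696 in the 35913-base intron between exons 6 and 7, 19200 bases after exon 6 and 16595 bases before exon 7. It was flanked by AG on its 5′ side and GT on its 3′ side. None of the 4 annotated PAN3 transcripts had an exon with these boundaries (0 of 4). PAN3-203, for which no coding sequence is annotated, has a 481-base exon that encloses it. The exon follows, with capitals marking the first stop codon in the reading frame of PAN3-201.
PAN3 alternative exon: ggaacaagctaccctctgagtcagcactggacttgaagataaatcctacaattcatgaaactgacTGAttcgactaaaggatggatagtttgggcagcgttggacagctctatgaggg

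The exon was 118 bases long, which leaves a remainder of 1 when divided by 3, so that its inclusion shifts the reading frame. Without it, PAN3-201 codes for 887 codons before the stop. With it, the reading frame ran for 333 whole codons before the exon and ended at a TGA that starts at base 66 of the exon, after 355 codons in all, or 40.0% of the coding codons. Between this stop and the end of the exon lay 50 bases, and 13 exon junctions followed it. Transcripts with a stop codon well upstream of an exon junction are often degraded by nonsense-mediated decay. Whether the PAN3 transcripts with the exon are degraded was not tested here, and gene counts do not separate the forms with and without it. The windows around both splice sites follow, with exon bases in capitals and intron bases in lower case. The first is chr13:28239559-28239588 and the second chr13:28239687-28239706, both on the plus strand.
PAN3 exon acceptor: ttgttggttgttttctctagGGAACAAGCT
PAN3 exon donor: TCTATGAGGGgtctgtttgt

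The study's primers for this exon lie in its neighbours, so that a single pair gives products of different length from both forms. The forward primer matched exon 6 at chr13:28220277-28220296 and the reverse primer matched the minus strand of exon 7 at chr13:28256508-28256527. The product was 338 bases without the exon and 456 bases with it. The primers are shown as ordered, 5′ to 3′.
PAN3 forward primer: cctccaggctgagtaacgtg
PAN3 reverse primer: aggtgctggagttgtgtctg

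**Figure D1:**
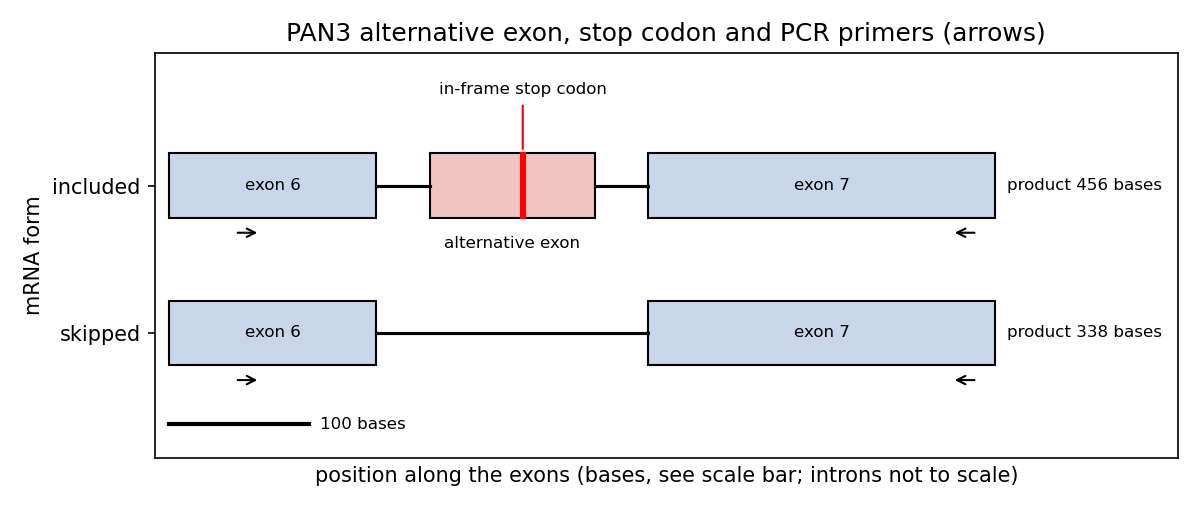
The alternative PAN3 exon of 118 bases drawn between exons 6 and 7 of PAN3-201, with boxes to scale along the horizontal axis in bases and introns not to scale, for the form that includes it (top) and the form that skips it (bottom). The red bar marks the in-frame stop codon at base 66 of the exon, and the arrows mark the primers, whose products are 456 and 338 bases.

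SRSF2 is known to bind short words of the form SSNG in RNA, in which S is G or C. CCNG words were counted on the transcribed strand, overlapping matches included, as were words of the form GGNG, words of the form CGNG and words of the form GCNG. The PAN3 exon held 1 such word, a GCNG, and its other strand held 4. Among 1145 internal exons of the same length in protein-coding transcripts, the median was 7 words, 98.7% held at least 1 and 4.72% held at most 1. GCNG itself occurred in 83.5% of these exons. The exon was therefore poor in these words, and its GC content was 45.8% against a median of 49.2% over the exons of the same length. The words were not counted in the flanking exons 6 and 7, whose GC content was 49.3% and 46.8%. For SLMAP and CETN3 the study reported SRSF2 binding in the neighbouring constitutive exon, and little in the alternative exon. A match is a description of letters, and binding to PAN3 was not measured here.

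The groups were set by the siRNAs below, each listed as 1 strand. The listed strand of si-SRSF2 has the sense of the SRSF2 mRNA. Capitals mark bases 2 to 8, the seed of that strand.
si-SRSF2 listed strand: uCCAAAUCcaggucgcgautt
si-NC listed strand: uUCUUCGAacgugucacgutt

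Of the libraries, si-NC held 19931360 counts (19882 genes with a count) and si-SRSF2 held 14512802 (19467 genes with a count). Counts were scaled to a common library size, with the TMM factors that edgeR derives from the bulk of the genes, and are given as CPM, on which 3 counts correspond to 0.151 in the control library and 0.207 in the knockdown library. The log2 ratio of si-SRSF2 over si-NC was taken with 0.5 CPM added to both values, for the 12620 genes whose mean reached 1 CPM. Beside each ratio stands a 95% Clopper-Pearson interval of the ratio of the scaled counts, taken with nothing added, which covers counting error only. At low counts the printed log2 ratio is therefore nearer to 0 than the middle of its interval. SRSF2 had 98.5 CPM with si-NC against 49.1 CPM with its own siRNA, a log2 ratio of −1.0 (−1.13 to −0.88). Exons of MFSD11 on the opposite strand overlap 30.1% of the canonical SRSF2 transcript. Epithelial markers were present in part, with 547 and 618 counts of KRT8, 632 and 477 of KRT18, 179 and 147 of EPCAM and 212 and 158 of CDX2, while CDH1 had 10 and 6 counts, KRT19 and VIL1 1 in each, CDH17 0 and 2 and LGALS4 0 and 0. KRT8 had a log2 ratio of 0.62, the highest of the 4 epithelial markers with a mean of 1 CPM, and CDX2 the lowest at 0.03. The markers of T cells (CD3E), endothelium (PECAM1), liver (ALB) and glia (GFAP) had 0 counts in both libraries, the leukocyte marker PTPRC had 2 and 0, and the fibroblast markers COL1A1 and COL3A1 had 13 and 13 and 3 and 1. CD68, a lysosomal protein used as a macrophage marker, had 15206 and 14256 counts, or 763.0 and 982.2 CPM, a log2 ratio of 0.36 (0.33 to 0.40), and another gene on its strand shares 94.9% of its transcript. Its part in the results was not tested. In bulk RNA, fewer cells of a type and less RNA per cell cannot be told apart.

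PAN3 itself was nearly level between the libraries. The control library held 1744 PAN3 counts (87.5 CPM) and the knockdown library 1166 (80.3 CPM). Its log2 ratio was −0.12 with a counting interval of −0.23 to −0.02, and the ratio ranked at the 34.4th percentile of all tested genes. The ratio lay inside the central 50% of the tested genes, between −0.19 and 0.15. With upper-quartile factors in place of TMM factors the log2 ratio was −0.10 and the interval ran from −0.21 to 0.01, so that whether it includes 0 depended on the scaling.

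PAN2 (chr12:56316223-56334053, minus strand), the nuclease that PAN3 recruits, was likewise nearly level. The control library held 1369 PAN2 counts (68.7 CPM) and the knockdown library 928 (63.9 CPM). Its log2 ratio was −0.10 (−0.23 to 0.02), an interval that includes 0. Of the counts of both genes together, PAN3 held 56.02% (95% exact interval 54.3 to 57.8%) in si-NC and 55.7% (53.5 to 57.8%) in si-SRSF2, and the intervals overlapped. The summed counts of PAN2 and PAN3 gave a log2 ratio of −0.11 (−0.20 to −0.03). The antisense gene of PAN3, PAN3-AS1, had 16 and 20 counts, and 15.7% of the canonical PAN2 transcript lies opposite exons of CNPY2-AS1.

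The scaffold members of CCR4-NOT were close to level. CNOT1 (chr16:58519951-58629885, minus strand), the large protein on which the other subunits assemble, had 8110 control and 5580 knockdown counts (406.9 and 384.5 CPM), with a log2 ratio of −0.08 (−0.13 to −0.03). CNOT2 (chr12:70243002-70354993, plus strand), which forms with CNOT3 the module named after the NOT proteins, had 2141 and 1489 counts, or 107.4 and 102.6 CPM, with a log2 ratio of −0.07 (−0.16 to 0.03). CNOT3 (chr19:54137749-54155681, plus strand) had 114 and 79 counts, or 5.72 and 5.44 CPM, and its log2 ratio of −0.07 had an interval of −0.50 to 0.35. All 3 ratios were therefore small, and the interval of CNOT3 is too wide to show a difference of the size seen for CNOT1.

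CNOT6 stood apart from the other subunits. CNOT6 (chr5:180494379-180578358, plus strand) encodes a nuclease of the exonuclease-endonuclease-phosphatase type, for which yeast Ccr4 is the prototype. The control library held 3408 counts of it and the knockdown library 1597. That is 171.0 CPM against 110.0 CPM, so that the si-SRSF2 library held 64.3% of the si-NC level. The log2 ratio was −0.63 (−0.72 to −0.55), at the 2.76th percentile of all tested genes and outside the central 90% of them, which lay between −0.51 and 0.53. Its paralog CNOT6L (chr4:77713387-77819615, minus strand), which takes the same place in the complex, had 2233 and 1453 counts, or 112.0 and 100.1 CPM, and a log2 ratio of −0.16 (−0.26 to −0.07).

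The share of CNOT6 within the pair was lower in the knockdown library. CNOT6 held 60.4% (59.1 to 61.7%) of the 5641 counts of CNOT6 and CNOT6L in si-NC and 52.4% (50.6 to 54.1%) of the 3050 counts in si-SRSF2, and the exact intervals did not overlap. Like those of the ratios, these intervals cover counting error only. Among all tested genes, the counting interval of the ratio lay below 0 for 26.7% and above 0 for 21%. The summed counts of both paralogs gave a log2 ratio of −0.43 (−0.49 to −0.37). The pseudogene CNOT6LP1 had 8 and 4 counts, and 24.5% of the 31-base words sampled along the canonical CNOT6L transcript occurred at other places in the primary assembly, so part of its reads may have been lost or shared.

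The other nuclease pair differed less. CNOT7, on chromosome 8, and CNOT8 (chr5:154857553-154876792, plus strand) encode paralogous nucleases of the DEDD type that bind CNOT1 directly. CNOT7 had 2577 control and 1942 knockdown counts (129.3 and 133.8 CPM), with a log2 ratio of 0.05 (−0.04 to 0.13). It was the only member of the 10 with a ratio above 0. CNOT8 had 5047 and 3280 counts, or 253.2 and 226.0 CPM, with a log2 ratio of −0.16 (−0.23 to −0.10).

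CNOT7 held 33.8% (32.7 to 34.9%) of the 7624 counts of CNOT7 and CNOT8 in si-NC and 37.2% (35.9 to 38.5%) of the 5222 counts in si-SRSF2, and the intervals did not overlap. Here too the intervals cover counting error only. Together CNOT7 and CNOT8 gave a log2 ratio of −0.09 (−0.14 to −0.04), smaller in size than that of the other pair. Exons of a gene on the opposite strand overlap 29.9% of the canonical CNOT7 transcript, and 13.8% of its sampled words occurred at other primary places. The study used a stranded library kit. The strand setting of the counting is not given in the sources used here, so reads of such partners cannot be told apart in the counts.

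**Figure D2:**
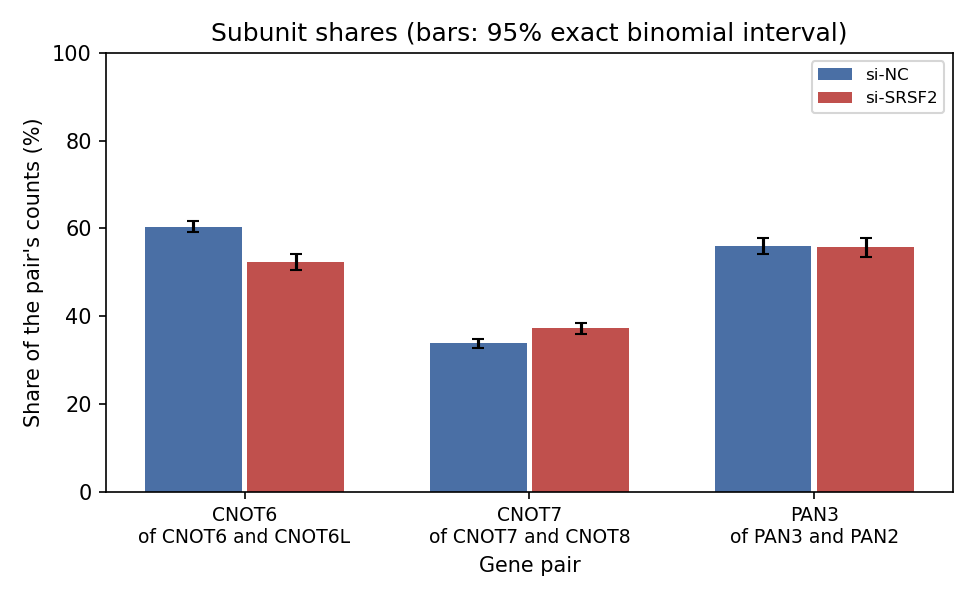
Share of the summed counts of each pair held by its first gene, in percent, in si-NC and si-SRSF2 (1 library each), with 95% exact binomial intervals, which cover counting error only, as error bars. The share of CNOT6 was 60.4% in si-NC and 52.4% in si-SRSF2, that of CNOT7 33.8% and 37.2%, and that of PAN3 56.02% and 55.7%.

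PARN was barely detected. PARN (chr16:14435700-14632728, minus strand) encodes a poly(A)-specific ribonuclease that acts outside both complexes, also on small nucleolar RNAs and on telomerase RNA. Only 28 control and 9 knockdown counts were found, at 1.40 and 0.620 CPM. With nothing added, the knockdown level was 44.1% of the control level, and the counting interval of that ratio on the log2 scale ran from −2.45 to −0.06. With 0.5 CPM added to both values the log2 ratio was −0.77. PARN and CNOT3 were also the members with a copy on alternate scaffolds of the assembly, where 79.3% and 79.6% of their sampled 31-base words were found, against at most 0.323% for the other members. Reads that match such a copy as well as the chromosome can be left uncounted, so these levels may be too low, and the part of the copies in the levels was not tested.

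**Figure D3:**
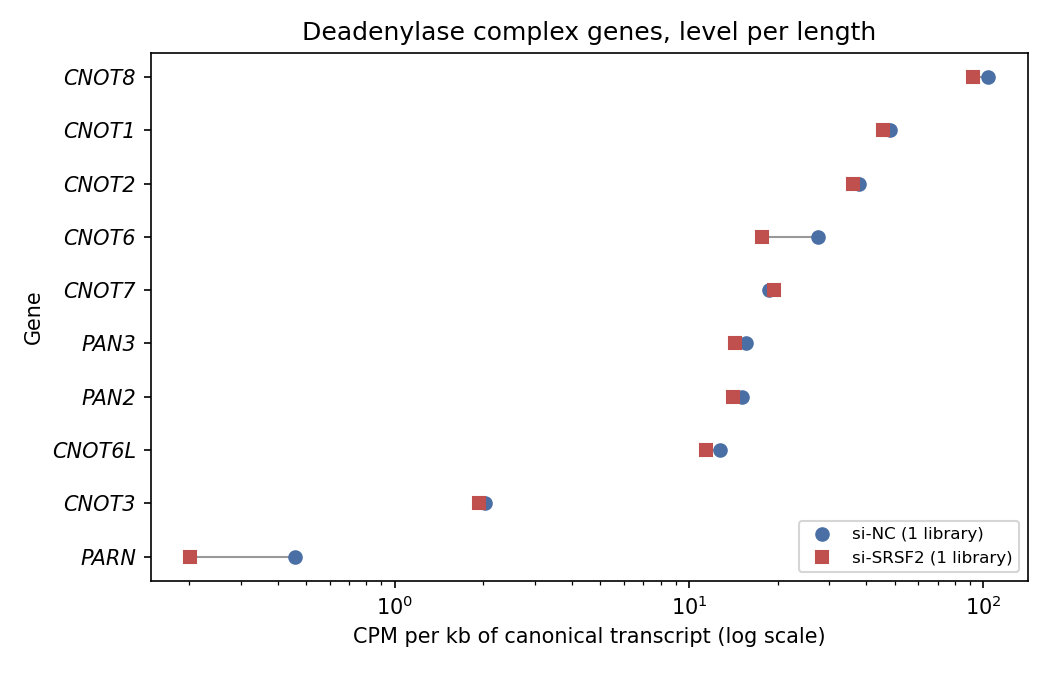
Level of each of the 10 genes in si-NC and si-SRSF2 (1 library each), in CPM per kilobase of the canonical transcript, on a logarithmic axis. CNOT8 was the highest in both libraries (103.5 and 92.4) and PARN the lowest (0.457 and 0.202), and CNOT6 was the gene in which the 2 libraries lay visibly apart at a high level.

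Levels between genes were compared per kilobase of the canonical transcript. In si-NC the order was CNOT8 (103.5 CPM per kilobase), CNOT1 (48.4), CNOT2 (37.8), CNOT6 (27.5), CNOT7 (18.8), PAN3 (15.7), PAN2 (15.2), CNOT6L (12.8), CNOT3 (2.03) and PARN (0.457). In si-SRSF2 CNOT7 came before CNOT6, at 19.4 against 17.7 CPM per kilobase, and the order was otherwise the same. PAN3 at 14.4 and PAN2 at 14.1 CPM per kilobase in si-SRSF2 were neighbours in both libraries. With 1 library per group no spread between samples stands behind the order, and it depends on the length used. With the union of all annotated exons as length, CNOT2 was at 7.68 CPM per kilobase in si-NC and PAN3 at 13.8, and CNOT6 stayed above CNOT7 in si-SRSF2, at 16.7 against 12.2.

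Counted together, 9 of the 10 genes were lower in si-SRSF2, where 53.8% of all tested genes were lower, and their median log2 ratio was −0.11 against −0.02 over all tested genes. CNOT6 and PARN, 2 of the 10, were at least 1.2-fold lower and also at least 1.5-fold lower, where 17.9% and 3.52% of all tested genes were. PARN passed the minimum mean of 1 CPM only through the control library, where it was higher, so its place in this count was favoured by that minimum. At least 1.2-fold higher were 0 of the 10, where 14.9% of all tested genes were, and at least 1.5-fold higher 0 of the 10, where 4.18% were. With 2 CPM added in place of 0.5, PARN was less than 1.5-fold lower, at −0.38. The counting interval lay below 0 for 6 of the 10 (PAN3, CNOT1, CNOT6, CNOT6L, CNOT8 and PARN), where it did so for 26.7% of all tested genes. With upper-quartile factors PAN3 left this count, which was then 5, against 23.7% of all tested genes. The 6 nuclease genes and the 4 scaffold or adaptor genes had median log2 ratios of −0.16 and −0.07. Apart from CNOT6 and PARN, every member lay between −0.16 and 0.05.

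**Figure D4:**
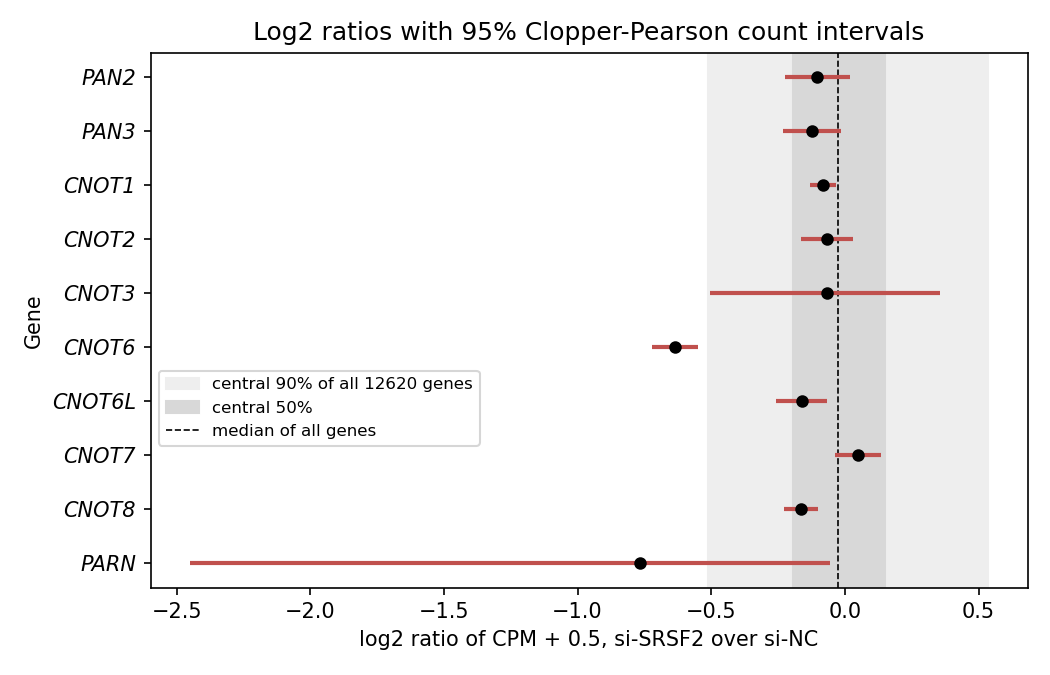
Log2 ratio of si-SRSF2 over si-NC for each of the 10 genes, with 95% counting intervals as error bars, and the spread of all 12620 tested genes for comparison. CNOT6 at −0.63 and PARN at −0.77 are more than 1.5-fold lower, and the other 8 lie between −0.16 and 0.05.

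The remaining CCR4-NOT subunits were lower together, with 5 of 5 below 0, where 53.8% of all tested genes were, a median log2 ratio of −0.25, and 2, CNOT10 and TNKS1BP1, at least 1.2-fold lower, where 17.9% of all tested genes were. Both were close to that limit, and with upper-quartile factors the count was 0 of 5, against 15.9% of all tested genes. They ranged from CNOT11 at −0.15 to CNOT10 at −0.28, with CNOT9, the subunit that binds microRNA effector proteins, at −0.20 and CNOT4, a ubiquitin ligase, at −0.25. The ratio of CNOT6 lay below all of these. Of the other deadenylases 5 of 6 were tested, and they had a median of −0.18, with 2 higher and 3 lower. TOE1, a deadenylase of small nuclear RNAs, went the other way from CNOT6, with 109 and 156 counts and a log2 ratio of 0.91 (0.61 to 1.34). ANGEL1 was the lowest of those tested at −0.28. Part of TOE1 (12.0% of its transcript) lies opposite exons of MUTYH and TESK2.

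Among the proteins that bring deadenylases to mRNAs, BTG2 and AGO2 were the genes at least 1.5-fold different with a mean of at least 1 CPM, that is 1 of 5 adaptors higher, where 4.18% of all tested genes were, and 1 of 21 recruiting factors lower, where 3.52% were. Over both lists this share is near that of all tested genes. NANOS1, just under that mean at 0.974 CPM, had 10 and 21 counts. The BTG/TOB adaptors, which bind CNOT7 and CNOT8, had a median log2 ratio of 0.20 over 5 tested of 6, with 4 higher and 1, BTG1 at −0.07, lower. BTG2, an antiproliferative gene of the p53 response, had 514 control and 790 knockdown counts (25.8 and 54.4 CPM) and a log2 ratio of 1.06 (0.92 to 1.24). The factors that recruit deadenylases, such as the AGO, TNRC6, NANOS, PUM and ZFP36 proteins, had a median of −0.11 over 21 tested of 23, with 7 higher and 14 lower. Of all tested genes, 53.8% were lower. AGO2, which holds microRNAs, had 17266 and 8076 counts, or 866.3 and 556.4 CPM, and a log2 ratio of −0.64 (−0.68 to −0.60). The highest of the tested factors was SAMD4B, an RNA-binding protein, at 0.22.

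The lists for the steps around deadenylation had medians near that of all genes, of which 53.8% were lower. The poly(A)-binding proteins and their partners had a median log2 ratio of 0.06 over 12 tested of 14, with 7 higher and 5 lower. PAIP2, a protein that binds and inhibits the cytoplasmic poly(A)-binding protein, was the highest of those tested at 0.26. PABPN1, the nuclear poly(A)-binding protein, was the lowest at −0.59 (−1.09 to −0.20) with 137 and 64 counts, and it shares 79.9% of its transcript with the readthrough gene BCL2L2-PABPN1, so its counts are uncertain. The decapping and 5′ decay factors had a median of 0.01 over 19 tested of 20, with 11 higher and 8 lower. DCP1B, an activator of the decapping enzyme, was the highest at 0.46. LSM14A, a decapping factor of which 93.3% of the sampled words lie on alternate scaffolds, was the lowest at −0.60.

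The exosome and SKI complex, which degrade from the 3′ end after deadenylation, had a median of −0.07 over 16 tested of 17. Of these genes 5 were higher and 11 lower, where 53.8% of all tested genes were lower, and they ranged from EXOSC2 at 0.39 to WDR61 at −0.35. The poly(A) polymerases and terminal transferases, which lengthen tails or add other bases, had a median of −0.03 over 11 tested of 12, with 4 higher and 7 lower, from PAPD7 at 0.16 to FAM46A at −0.35. Over all 8 lists, 94 of 103 genes were tested. Of these, 40 were higher and 54 lower, 10 were at least 1.2-fold higher and 14 at least 1.2-fold lower, where 14.9% and 17.9% of all tested genes were, so neither share of the 94 lay above the background. With upper-quartile factors 11 were higher by this measure and 10 lower, where 16.7% and 15.9% of all tested genes were. The balance of the lists thus turned with the scaling, as it did over all genes.

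**Figure D5:**
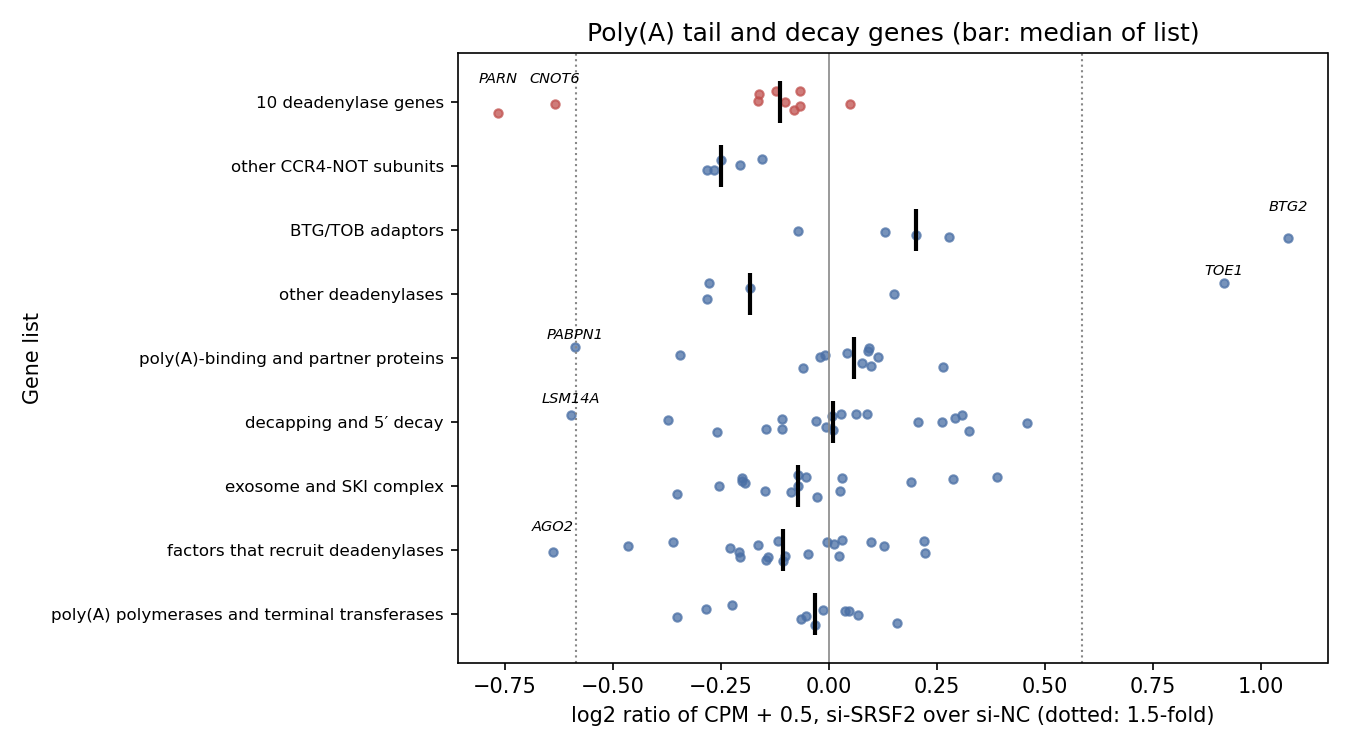
Log2 ratio of si-SRSF2 over si-NC for each tested gene of the 10 members and of the lists of other mRNA decay and tail factors, 1 point per gene with a bar at each list's median. Genes at least 1.5-fold different are named, among them CNOT6 and PARN of the members, BTG2 (1.06), TOE1 (0.91) and AGO2 (−0.64).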

How the data were processed

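RNA sequencing of poly(A) RNA was analysed in 2 RKO libraries (si-NC and si-SRSF2, 1 each). The authors aligned reads with HISAT2 2.0.4 to GRCh38, for which they name Ensembl release 100, counted them per gene with HTSeq, and deposited raw counts. Some gene names in the counts, such as FAM46A and PAPD7, are not those of GENCODE release 44 (TENT5A and TENT4A). The library kit was stranded, but counting on strand is not given in the sources used here. CPM were obtained from the counts with TMM factors (edgeR 4.0.16, R 4.3.3). Genes whose mean reached 1 CPM entered the comparisons, with a pseudocount of 0.5 CPM for log2 ratios and exact 95% intervals from SciPy 1.17.1. No test was run, since each group had 1 library. The calculation was tested on simulated data for si-SRSF2 against si-NC with 12608 genes, in which 95.9% of 195 changed genes passed 1.5-fold in the right direction and 0.669% of the unchanged genes passed it. The simulated counts varied by counting error only, so these rates leave out variation between transfections. The members and gene lists were chosen with earlier results of these data known. Genes named were SRSF2, the members, the highest and lowest gene of each list, every listed gene past 1.5-fold, the markers of cell types, rows that overlap or resemble a member and, chosen after their values were seen, CNOT4, CNOT9, TNKS1BP1, NANOS1, LSM2, SKIV2L and CPEB1. Transcripts and coordinates came from GENCODE release 44. The position of the PAN3 exon and the primer and siRNA sequences came from the study's event list and methods, and no junction reads were used. Alternatives were other scalings, pseudocounts, filters and transcript lengths. The result for 1 sequence element is not reported here.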

Additional observations from a re-analysis of the deposited data

How the results depend on the processing

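No paired analysis was possible because there was 1 library in each group, and leaving out replicates was not possible for the same reason. No log2 ratio of a member and no median of a list changed sign under the alternatives run, but the balance of higher and lower genes over the whole table did. The log2 ratio of PAN3 ranged from −0.12 to −0.10, that of CNOT6 from −0.64 to −0.61 and that of PARN from −1.06 to −0.38. The members at least 1.2-fold lower were 1 in place of 2 with a filter at a mean of 5 CPM and, in an alternative chosen after seeing the data, 1 without the genes found mostly on alternate scaffolds, because PARN was then left out. Over all genes, 527 were at least 1.5-fold higher and 444 lower. With a pseudocount of 2 CPM these were 254 and 220, with no filter on low counts 1262 and 837, and with a filter at 5 CPM 202 and 237. At 1.2-fold, 1886 higher and 2264 lower became 4113 and 4181 with no filter, 1180 and 1693 with the filter at 5 CPM, and 2106 and 2004 with upper-quartile factors, where more genes were higher than lower. With the filter at 5 CPM more genes were lower than higher at 1.5-fold. The filters change how many genes are tested. The median of all genes moved most with upper-quartile factors, from −0.02 to −0.002, under 0.1. Depth limits the values of PARN (28 and 9 counts) and CNOT3 (114 and 79 counts).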

Other observations

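Some rows related to the members were nearly empty. The pseudogene CNOT7P1 had 1 control and 4 knockdown counts, CNOT7P2 had 0 in both, and LENG1 and FAXDC2, which lie opposite CNOT3 and CNOT8, had 0 in both. SETD6, opposite CNOT1, had 505 control and 456 knockdown counts, against 8110 and 5580 for CNOT1. LSM2 and SKIV2L, of which 88.0% and 80.6% of the sampled words were found on alternate scaffolds, had 0 counts in both libraries, and CPEB1, at 83.8%, had 1 and 0.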
